A study of Mus musculus with 23 samples.

Results

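The genes described here belong to the integrated stress response and to the amino acid metabolism it controls. They are 40 genes taken by name, 34 of them attached to the transcription factor ATF4 and 6 of them to the endoplasmic reticulum branch (Hspa5, Herpud1, Hsp90b1, Dnajb9, Xbp1 and Sdf2l1). All 40 were listed in each deposited expression table, among 35385 gene symbols. By role, the 34 ATF4 genes comprised 6 regulators, 9 effectors, 8 biosynthetic enzymes, 5 amino acid transporters and 6 genes for charging or exporting tRNA.

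The libraries came from mouse OPCs (oligodendrocyte progenitor cells), which divide and can become myelinating cells, and from the immature oligodendrocytes (OLs) made from them. The OPCs had been made from 2 lines of epiblast stem cells, EpiSC5 and 129O1, of strains 129SvEv and 129S1/SvImJ, and had been purified earlier by flow sorting for CD140a and NG2. In the Sox6 experiment, OPCs carried a lentiviral CRISPRv2 construct with a non-targeting guide (controls) or 1 of 2 guides against Sox6, a transcription factor of the lineage. Controls and targeted cells alike had passed 96 hours in 500 ng/mL puromycin, and came from 1 original batch of OPCs. They were lysed after 60 hours in OPC growth medium or in a differentiation medium without thyroid hormone T3, with no sort at that point. The OPC stage had 3 control, 2 guide 1 and 3 guide 2 libraries, and the OL stage had 3 of each. A separate set without any guide held 3 libraries of magnetically sorted OPCs and 3 of magnetically sorted O1+ OLs. No cloning step is described for the guided cells, and the labels do not say whether libraries of the same group were separate cultures. The p-values therefore measure the spread between these libraries, which may be technical.

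The integrated stress response starts when a kinase phosphorylates the translation factor eIF2, which slows protein synthesis but favours translation of ATF4. ATF4 then binds C/EBP-ATF composite elements and switches on genes for amino acid uptake, amino acid synthesis, tRNA charging and feedback. Protein misfolding in the endoplasmic reticulum activates the same kinase route through PERK and, in parallel, ATF6 and IRE1 with XBP1, which raise chaperones through ER stress elements. In oligodendrocytes, which build large amounts of membrane protein, both routes are known from studies of myelin disease. ATF4 is controlled largely by translation, so its mRNA is not a direct reading of its activity.

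Promoters of 5 members that hold a known element are shown first as examples, because the 2 groups differ in the element they are known to use. Promoter windows of 250 bases before to 50 bases after the annotated start (RefSeq, GRCm38.p6) were available for 31 of the 34 ATF4 genes and all 6 endoplasmic reticulum genes. Capitals mark TGATGNAA, the core of the C/EBP-ATF element, on either strand in Slc7a11, Chac1, Trib3 and Aars. In Hspa5 they mark an ER stress element, CCAAT and CCACG with 9 bases between them. The windows, read along the gene, are chr3:50443564-50443863 (minus strand) for Slc7a11, chr2:119350992-119351291 (plus) for Chac1, chr2:152344011-152344310 (minus) for Trib3, chr8:111033592-111033891 (plus) for Aars and chr2:34771840-34772139 (plus) for Hspa5.
Slc7a11: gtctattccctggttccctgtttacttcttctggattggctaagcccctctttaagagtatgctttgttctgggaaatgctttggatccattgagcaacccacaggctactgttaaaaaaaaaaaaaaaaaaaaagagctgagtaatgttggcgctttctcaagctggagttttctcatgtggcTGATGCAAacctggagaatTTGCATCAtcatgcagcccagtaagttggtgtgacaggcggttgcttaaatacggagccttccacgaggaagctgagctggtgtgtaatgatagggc
Chac1: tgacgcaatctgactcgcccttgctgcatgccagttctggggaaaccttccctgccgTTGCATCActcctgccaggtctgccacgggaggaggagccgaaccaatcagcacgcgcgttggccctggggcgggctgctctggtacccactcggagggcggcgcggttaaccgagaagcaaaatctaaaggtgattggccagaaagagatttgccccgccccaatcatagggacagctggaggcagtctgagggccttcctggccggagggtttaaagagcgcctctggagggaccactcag
Trib3: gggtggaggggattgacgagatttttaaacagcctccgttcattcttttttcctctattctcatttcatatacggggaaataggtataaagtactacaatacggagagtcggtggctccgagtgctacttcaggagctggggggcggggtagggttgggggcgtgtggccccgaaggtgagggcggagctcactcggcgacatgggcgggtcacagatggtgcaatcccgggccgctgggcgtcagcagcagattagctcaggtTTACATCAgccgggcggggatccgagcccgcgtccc
Aars: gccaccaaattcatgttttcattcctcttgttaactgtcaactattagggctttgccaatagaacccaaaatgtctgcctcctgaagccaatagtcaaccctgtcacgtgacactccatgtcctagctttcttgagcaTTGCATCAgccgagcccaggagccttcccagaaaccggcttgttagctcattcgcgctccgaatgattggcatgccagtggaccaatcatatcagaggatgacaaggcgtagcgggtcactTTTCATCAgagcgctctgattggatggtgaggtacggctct
Hspa5: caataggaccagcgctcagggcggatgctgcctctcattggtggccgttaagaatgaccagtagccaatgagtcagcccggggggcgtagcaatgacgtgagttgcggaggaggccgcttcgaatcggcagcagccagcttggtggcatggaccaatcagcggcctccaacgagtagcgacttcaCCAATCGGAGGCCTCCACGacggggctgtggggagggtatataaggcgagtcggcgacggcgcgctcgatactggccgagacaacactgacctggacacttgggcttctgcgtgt

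Slc7a11 held the core on opposite strands at 66 and 47 bases before the start. In Chac1 the core lay 193 bases before the start, and in Aars it lay 112 bases before it, with another match just inside the transcript. In Trib3 it lay 15 bases after the start. The Hspa5 element lay 65 bases before the start. Of the genes called in targeted OLs below, the windows of Cebpb, Shmt2, Slc3a2 and Sdf2l1 held none of the motifs searched, and those of Eif4ebp1 and Slc7a5 were not used here. Some genes have more than 1 window, and a gene was counted if any of its windows held the motif. The TGATGNAA core was found in 11 of the 31 ATF4 genes (35.48%) and in 1 of the 6 endoplasmic reticulum genes (Herpud1). Of all 27025 genes with a window, 4.51% held it. The ER stress element was found in 0 of the 31 and in 2 of the 6, Hspa5 and Hsp90b1, against 0.14% overall. The full ATF/CRE palindrome TGACGTCA, which does not overlap the core, was found only in Ppp1r15a among the members, against 2.03% of all genes with a window. A match describes letters in a window, not binding.

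The libraries of the Sox6 experiment held 13967438 to 16958611 estimated counts at the OPC stage and 13124580 to 18551822 at the OL stage. The depth behind the sorted libraries is unknown, as only TPM (transcripts-per-million) values were used there. Sox6 itself lay below all controls in all targeted libraries, at 67.4 to 89.0 against 165 to 234 CPM (counts-per-million) in OPCs and 157 to 259 against 387 to 437 CPM in OLs. Library B of OL guide 1 stood apart, with a first principal component of 99.9 against -20.8 to -6.8 in the other 8 OL libraries. Among OPC controls, libraries A and C lay farthest from the rest. The tables listed none of 42 annotated gene names whose transcripts all carry an Ensembl version number of 10 or higher (GENCODE M21, which may not be the submitters' release), against 34858 of 55299 other names. Among the members, 25 have no principal transcript of that kind, 7 have it for some and 8 for all. Phgdh, Psph, Sars and Asns belong to the last 2 classes, and the transcript lengths implied by their deposited values were 324, 245, 459 and 260 bases, far below their annotated 1893, 1733, 3570 and 2001 or more. For Atf4 and Slc7a11, of the first class, they were 1606 against 1725 and 9020 against 9223. In control OPCs, 2.0% of listed genes with all principal transcripts of that kind averaged 100 TPM or more. The share was 5.28% of genes with some and 5.5% of those with none. With all of that kind, Pgk1 read 0.15 to 0.71 and Actb 21.2 to 44.4 TPM, but Eef1a1 142 to 380 and Hspa8 1361 to 1670. Levels of the 15 members with some or all such transcripts may therefore be incomplete, which was not tested.

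Per length, the most abundant members were the same in both control groups. The mean TPM of Hspa5, the main chaperone of the endoplasmic reticulum, was 582 in control OPCs and 447 in control OLs. Psat1, which makes phosphoserine on the way to serine, followed at 249.6 and 278, and Atf4 at 191 and 213 (values set across 2 tables). In sorted OPCs the order of these 3 was the same, at 493 ± 81.1, 293 ± 21.4 and 194 ± 19.8 TPM (SD, n = 3). In sorted OLs Hspa5 stood at 349.5 ± 15.4 and Psat1 at 282 ± 13.1, while Ddit4 at 142 ± 21.4 and Atf4 at 139 ± 5.45 did not differ beyond their spread. At the other end, Atf3 was listed at 0 in every control library, and Ppp1r15a, Phgdh and Slc7a1 read at most 0.63 CPM in any library of the controls. These 3 and Atf3 are among the 15 members with principal transcripts of version 10 or higher.

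Whether loss of Sox6 moved these genes was asked first in OL cultures. With guides pooled, 37 of the 40 members could be tested (Atf3, Ppp1r15a and Slc7a1 were too low), and 9 rose and 0 fell at an adjusted p under 0.05 by edgeR's quasi-likelihood test. Over all 13447 genes tested 6.50% were called, 3.13% higher and 3.37% lower. The 9 were Slc7a11, Slc7a5 and Slc3a2 among transporters, Chac1 and Eif4ebp1 among effectors, the regulator Cebpb, the enzyme Shmt2, the tRNA synthetase gene Aars and, in the endoplasmic reticulum group, Sdf2l1. All 9 were among the 25 members with no principal transcript of version 10 or higher. In 17 of the 37 every targeted library lay above every control, which was so for 8.82% of all genes, and in 1 of the 37 (Ddit4) every targeted library lay below, against 8.66%.

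Of the 5 transporters 4 could be tested, and 3 were called. Slc7a11, the light chain that exchanges cystine for glutamate, read 77.2, 62.6 and 69.8 CPM in the 3 controls, 146, 93.7 and 138 with guide 1, and 173, 156 and 172 with guide 2. All 6 targeted libraries were above all controls, with library B of guide 1 the lowest of the 6. The change was 2.07-fold, a log2 difference of 1.05 ± 0.15 (SE), with an adjusted p of 0.00364 by edgeR.

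Slc7a5, the light chain that imports large neutral amino acids, read 263.5, 261 and 263 CPM in controls, 455, 399 and 473 with guide 1, and 508, 455 and 463 with guide 2. The controls lay close together, and every targeted library was far above them. Its log2 difference was 0.80 ± 0.08 (SE), a 1.74-fold rise, with an adjusted p of 0.00052 by edgeR. Slc3a2, the heavy chain that both light chains need at the membrane, rose as well, from 241, 233 and 232 CPM to 348, 499.5 and 337 with guide 1 and 347, 384 and 348 with guide 2. Here library B was the highest of all rather than the lowest, and the groups again did not overlap. The log2 difference was 0.67 ± 0.12 (SE) with an adjusted p of 0.0133 by edgeR.

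The glycine transporter gene Slc6a9 was not called, at 0.82 on the log2 scale. Its controls read 18.99, 20.4 and 18.5 CPM, guide 1 libraries 48.5, 8.75 and 35.0, and guide 2 libraries 43.6, 37.2 and 31.6. Library B alone lay below the controls. Without it the log2 difference was 1.03 ± 0.14 (SE), with an adjusted p of 0.00111 by edgeR. All principal transcripts of Slc6a9 are of version 10 or higher. The gene overlaps Ccdc24 and B4galt2 on the other strand, and these libraries do not mark strand.

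**Figure D1:**
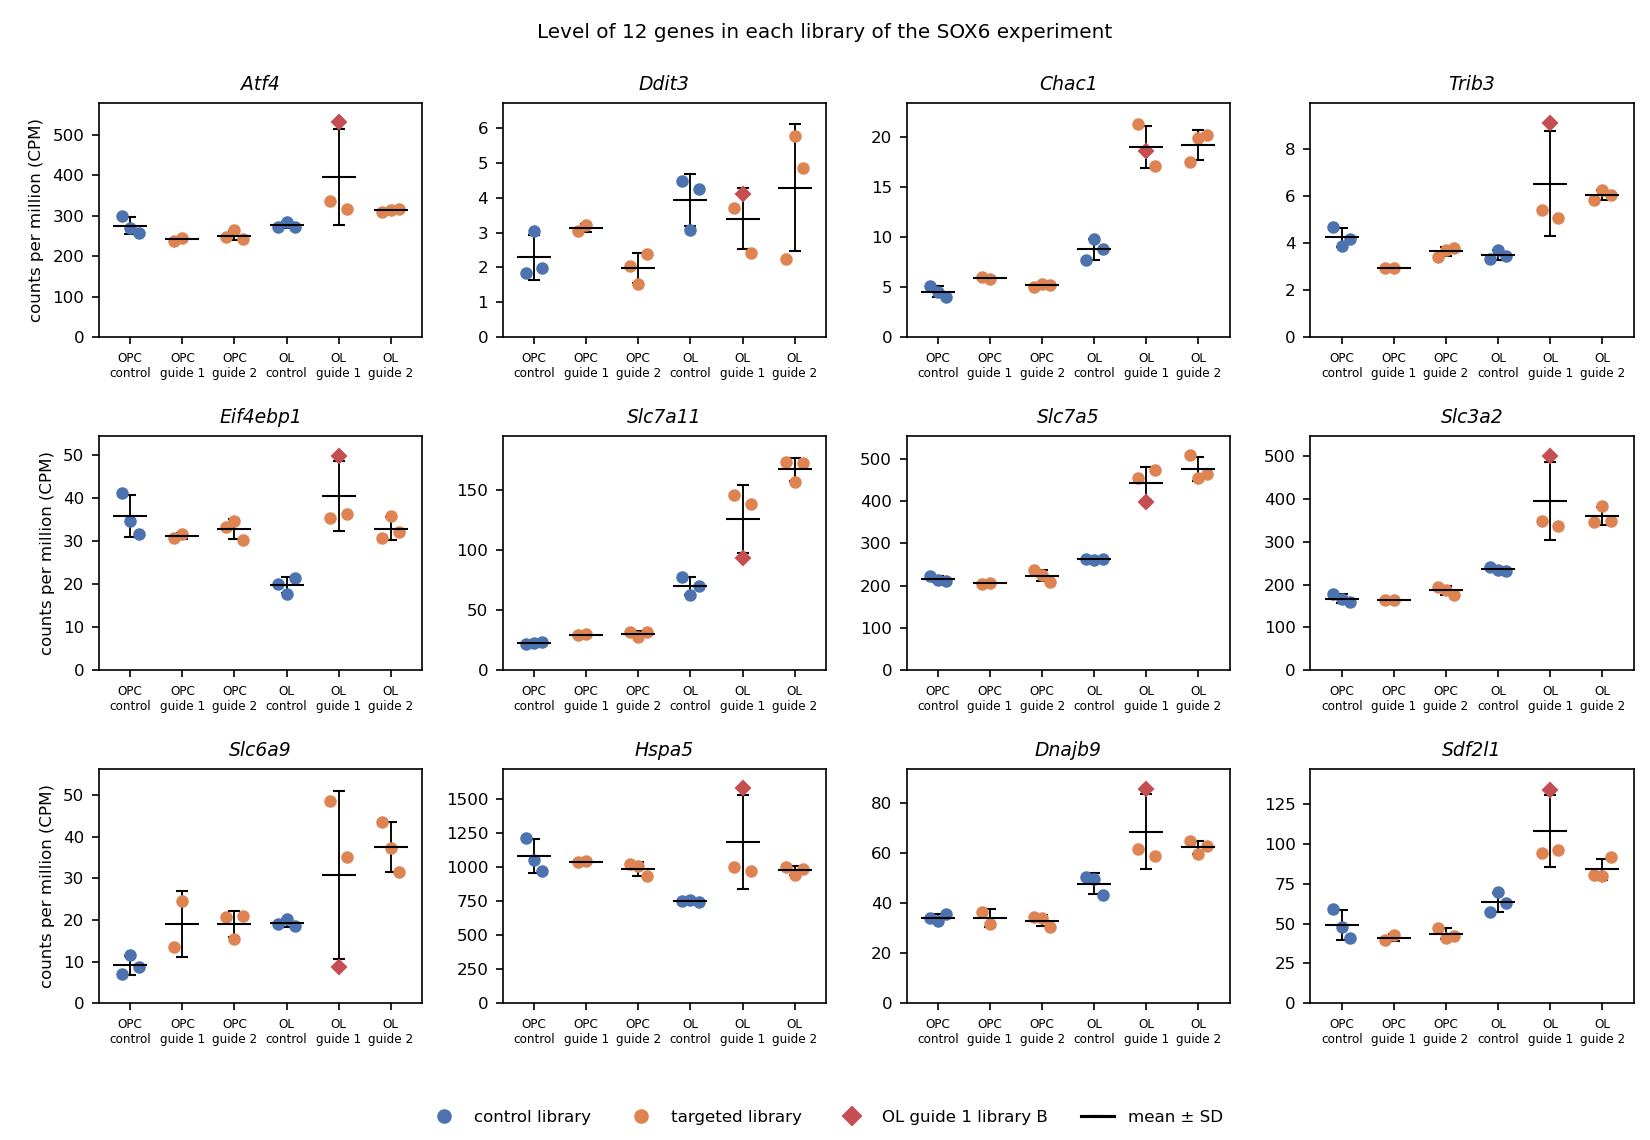
CPM (vertical axis, 1 panel per gene, each with its own scale) of 12 members in each of the 17 libraries of the Sox6 experiment, grouped by stage and guide, with points for libraries, bars for group means and a red diamond for library B of OL guide 1. In OLs the targeted points of Slc7a5, Slc7a11 and Chac1 lie above all controls. In OPCs those of Slc7a11 and Slc6a9 lie above all controls and those of Trib3 below, while the groups of the other genes overlap.

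Among effectors, Chac1, which breaks down glutathione, rose as well. Its controls read 7.72, 9.77 and 8.86 CPM, guide 1 libraries 21.3, 18.6 and 17.1, and guide 2 libraries 17.5, 19.9 and 20.2. Both guides reached the same range, and all 6 targeted libraries lay above every control. The log2 difference was 1.12 ± 0.13 (SE), 2.17-fold, with an adjusted p of 0.00162 by edgeR.

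Eif4ebp1, which encodes the repressor of cap-dependent translation 4E-BP1, read 20.1, 17.8 and 21.5 CPM in controls, 35.4, 49.9 and 36.4 with guide 1, and 30.7, 36.0 and 32.2 with guide 2. All targeted libraries were above all controls, and library B was the highest. The log2 difference was 0.88 ± 0.13 (SE) with an adjusted p of 0.00521 by edgeR. Trib3, a pseudokinase that feeds back on ATF4, had controls at 3.31, 3.72 and 3.46 CPM and targeted libraries from 5.05 to 9.09. Its groups did not overlap, but its log2 difference of 0.84 ± 0.22 (SE) had an adjusted p of 0.0647 by edgeR. Without library B it was 0.68 with an adjusted p of 0.0218.

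Ddit4, an inhibitor of mTORC1, was the only tested member whose targeted OL libraries all lay below the controls. Controls read 163, 195 and 178 CPM and targeted libraries 121 to 162. The log2 difference was -0.35 and missed the threshold; without library B it was -0.41 ± 0.08 (SE), with an adjusted p of 0.0107 by edgeR.

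Of the regulators, Atf4 read 273, 285 and 271 CPM in controls, 338, 532 and 318 with guide 1, and 308.5, 315 and 316 with guide 2. Every targeted library was above every control, and library B was far above the other 5. The log2 difference was 0.34 ± 0.15 (SE) with an adjusted p of 0.258 by edgeR; without library B it was smaller, 0.20 ± 0.03 (SE), with an adjusted p of 0.00374. Cebpb, a C/EBP factor that pairs with ATF4, rose from 5.28, 4.16 and 5.84 CPM to between 7.44 and 15.4, the last in library B. Its log2 difference was 1.07 ± 0.25 (SE) with an adjusted p of 0.0408 by edgeR. Cebpb overlaps Tmem189 on the other strand.

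Ddit3, which encodes the pro-apoptotic factor CHOP, showed no difference past the threshold. It read 4.48, 3.07 and 4.25 CPM in controls and 2.24 to 5.77 in targeted libraries, which overlapped. Its log2 difference was -0.04 ± 0.33 (SE). It overlaps Mars on the other strand, and 1 of its 2 principal transcripts is of version 10 or higher.

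Of the 8 biosynthetic enzymes, 1 was called. Shmt2, which makes one-carbon units from serine in mitochondria, rose from 149.9, 149 and 152 CPM to 170.0 to 209.6 CPM, a log2 difference of 0.28 ± 0.06 (SE) with an adjusted p of 0.0351 by edgeR. Shmt2 overlaps Ndufa4l2 on the other strand. Psat1 overlapped between groups, with controls at 567, 577.5 and 556 CPM and targeted libraries from 563 to 624. Asns, which makes asparagine, was detected at 0.17, 0.78 and 2.08 CPM in controls and at 0 to 0.89 CPM in targeted libraries. Those values overlapped, and its log2 difference of -2.18 ± 1.14 (SE) had an adjusted p of 0.363 by edgeR.

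All 6 tRNA genes lay above 0 on the log2 scale, and 1 was called. Aars, alanyl-tRNA synthetase, read 305, 328 and 324 CPM in controls and 368 to 405.5 in targeted libraries, with no overlap and a log2 difference of 0.26 ± 0.06 (SE, adjusted p of 0.0340 by edgeR). Aars overlaps Exosc6 on the same strand. Yars and Xpot, a tRNA exporter, joined it without library B, at 0.20 and 0.16 on the log2 scale.

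In the endoplasmic reticulum group 1 of 6 members was called. All 6 lay above 0 in these counts, but Hsp90b1, at 0.61 ± 0.25 (SE, adjusted p of 0.227 by edgeR), was -0.20 with a length offset and -0.086 in the authors' deposited table. Sdf2l1, an ER protein of the chaperone complex, read 57.3, 69.6 and 62.7 CPM in controls, 94.2, 134 and 96.0 with guide 1, and 80.6, 80.0 and 91.6 with guide 2. Targeted libraries were above all controls, and its log2 difference was 0.59 ± 0.13 (SE) with an adjusted p of 0.0285 by edgeR. Hspa5 read 753, 757 and 744.5 CPM in controls, 1000, 1585 and 974 with guide 1, and 1005, 941 and 989.9 with guide 2.

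Library B thus held more Hspa5 than any other OL library, and the other 5 targeted libraries were also above all controls. The log2 difference of Hspa5 was 0.52 ± 0.15 (SE) with an adjusted p of 0.0764 by edgeR, and 0.38 ± 0.03 (SE) with an adjusted p of 5.42e-05 without library B. Dnajb9, a co-chaperone induced by XBP1, was called without library B, at 0.35 on the log2 scale. Xbp1, with controls at 2.58 to 3.34 CPM and targeted libraries at 2.36 to 4.55, overlapped.

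**Figure D2:**
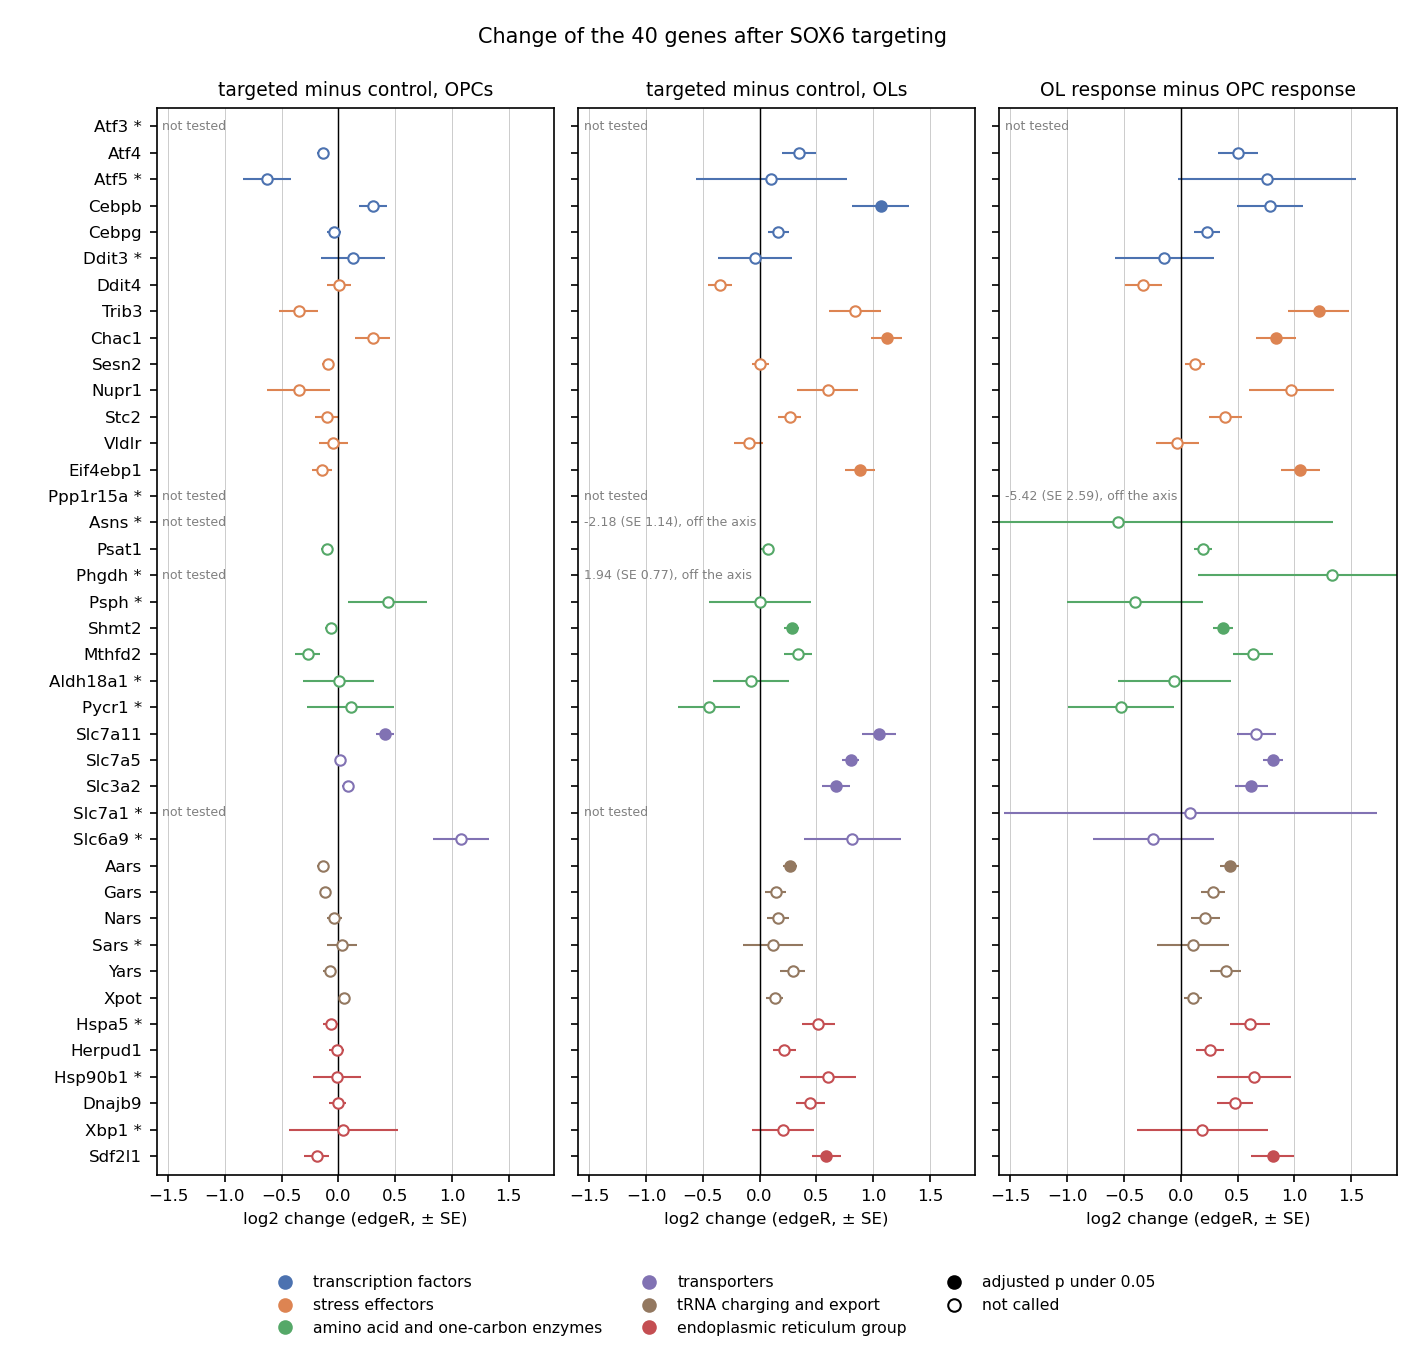
Log2 difference between Sox6-targeted and control libraries (horizontal axis, points with standard errors) for the 40 members, in OPCs, in OLs, and as the OL difference minus the OPC difference. Genes marked * have a principal transcript of version 10 or higher, and values beyond the axis are written as text. The 9 called genes in OLs all lie to the right of 0.

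Library B lay above the range of the other 5 targeted OL libraries in 14 of 31 ATF4 genes tested and below it in 7, against 36.2% above and 34.2% below over all genes. In the endoplasmic reticulum group it lay above in 5 of 6 and below in 0 of 6. Without it 38 members could be tested, and 16 rose and 1 fell, against a background of 16.9% called. The 9 genes called with it were among the 16, at 1.13 for Slc7a11, 0.83 for Slc7a5, 0.57 for Slc3a2, 1.12 for Chac1, 0.79 for Eif4ebp1, 0.87 for Cebpb, 0.24 for Shmt2, 0.25 for Aars and 0.49 for Sdf2l1 on the log2 scale. Leaving out any 1 control OL library left 4 calls, and leaving out any 1 guide 2 library (A, B or C) left 5. Slc7a11, Slc7a5, Chac1 and Eif4ebp1 kept their call in all 17 alternatives. The call was lost in 13 of the 17 for Aars, 11 for Shmt2, 10 for Cebpb, 7 for Sdf2l1 and 3 for Slc3a2.

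Each guide was also compared with the controls by itself. Guide 1 alone called 7 members and guide 2 alone 5, all higher, against 4.92% and 4.44% of all genes, and the 5 (Chac1, Eif4ebp1, Slc7a11, Slc7a5 and Slc3a2) were among the 7. Without library B in the fit, guide 1 alone called 15 members, 14 of them higher, against 11.4% of all genes, and guide 2 alone called 16, 15 of them higher, against 15.5%. Guide 2 minus guide 1, tested directly, called 0 members in OLs and 0 in OPCs by edgeR, at a background of 0 in both. In OLs 3 members and in OPCs 4 had an unadjusted p under 0.05. DESeq2 called 0 members as well, against 14 of 16910 genes in OLs and 106 of 13710 in OPCs. Slc7a11 in OLs differed by 0.40 ± 0.16 (SE) on the log2 scale between guides, with an adjusted p of 0.692 by edgeR. The authors' deposited table for OLs called 11 members, all higher, which included these 9 plus Cebpg at 0.34 and Dnajb9 at 0.46 on the log2 scale. Its share of calls over all genes was not counted here.

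Summed markers of cell types differed as well. In OLs the 6 oligodendrocyte markers summed to 2020 to 2221 CPM in controls and 2506 to 2955 in targeted libraries, and the 7 astrocyte markers to 4828 to 5072 and 5188 to 5944. The 6 neuron markers summed to 104 to 109.5 and 70.4 to 99.2 CPM, and the 4 microglia markers read at most 0.57. The 5 genes used as progenitor markers (Pdgfra, Cspg4, Olig1, Olig2 and Sox10) summed to 4843 to 5168 in controls and 4130 to 5174 in targeted libraries. Mog, a late myelin gene, was at 0 in every control and guide 2 OL library. The part of these differences in the results was not tested, and in bulk RNA fewer cells of a type and less RNA per cell cannot be told apart.

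Other genes of the same pathways followed unevenly in targeted OLs, where 3.13% of all genes were called higher and 3.37% lower. Of 17 other ATF4 genes, 15 were tested, 3 rose and 2 fell. The risers were the neutral amino acid transporter gene Slc1a4 at 0.69, Cbs of cysteine synthesis at 0.65 and mitochondrial Pck2 at 0.47 on the log2 scale. The fallers were Slc38a2, a glutamine and neutral amino acid transporter gene, at -1.04, and Bcat1, which transaminates branched-chain amino acids, at -0.78. Slc38a2 lay at 350 to 393 CPM in controls and 148 to 192 in targeted libraries, opposite to the members Slc7a5 and Slc7a11. Of 20 other endoplasmic reticulum genes, 19 were tested and 4 rose, Calr at 0.38, Canx at 0.29, Pdia4 at 0.43 and Dnajc3 at 0.36, all chaperones or folding factors. By edgeR, 0 of 15 other tRNA synthetase genes, 0 of 13 genes of eIF2 and its kinases and 0 of 4 tested stress sensor genes were called, with 4, 1 and 0 at an unadjusted p under 0.05. DESeq2 also called 0 in each of these 3 lists. Transcript versions were not assessed for the lists, and 0 calls do not show that their genes stayed unchanged. Eif2b1 at 1.53 and Eif2s3x at -1.55 on the log2 scale had adjusted p-values of 0.573 and 0.361 by edgeR. Without library B, 9 of the other endoplasmic reticulum genes rose, the kinase gene Eif2ak2 rose and the tRNA synthetase gene Rars fell. In that fit 16.9% of all genes were called, against 6.50% with library B. Counts of the other ATF4 genes in that fit are not given here.

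In OPCs 1 of 35 members tested was called, Slc7a11, against 3.59% of 13358 genes. Atf3, Ppp1r15a, Asns, Phgdh and Slc7a1 were too low. Slc7a11 read 22.1, 22.7 and 23.7 CPM in controls, 29.3 and 29.7 with guide 1, and 31.8, 27.4 and 31.7 with guide 2, so every targeted library was above every control. The log2 difference was 0.41 ± 0.08 (SE) with an adjusted p of 0.0272 by edgeR, and the call was lost in 10 of 16 alternatives, among them leaving out control library A or B.

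Most other members overlapped between groups in OPCs. Atf4 read 299, 269 and 258 CPM in controls, 239 and 246 with guide 1, and 246, 264 and 242 with guide 2, a log2 difference of -0.14 ± 0.05 (SE, adjusted p of 0.216 by edgeR). Hspa5 read 1214, 1056 and 969.5 CPM in controls and 932 to 1045 in targeted libraries, which overlapped. Ddit3 read 1.83 to 3.04 CPM in controls and 1.53 to 3.21 in targeted libraries, which overlapped, and Asns, untested, was detected at 0, 0.06 and 1.61 CPM in controls and at 0.06 to 0.37 in targeted libraries. Every targeted library lay above every control in 3 of the 35 members, Slc7a11 and, without a call, Cebpb and Slc6a9, against 5.49% of all genes. The log2 difference of Slc6a9 was larger than that of Slc7a11, at 1.08 ± 0.25 (SE), 2.12-fold. It missed the threshold with an adjusted p of 0.0538 by edgeR and was called by DESeq2 (adjusted p of 0.000798). Every one lay below in 2 of the 35, Atf5 and Trib3, neither of them called, against 6.27%. Trib3 read 4.66, 3.87 and 4.18 CPM in controls and 2.92 to 3.79 in targeted libraries.

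The authors' deposited OPC table called 3 members, Slc7a11 at 0.48, Slc6a9 at 0.90 and Atf5 at -1.84 on the log2 scale. Its share of calls over all genes was not counted here either. Of other genes in OPCs, Slc1a4 rose by 0.42, and Slc38a2 at -0.41, Bcat1 at -0.58 and the tRNA synthetase gene Cars at -0.26 fell, by edgeR. Slc38a2 thus fell and Slc1a4 rose in targeted cells of both stages. Oligodendrocyte markers summed to 131 to 165 CPM in control OPCs and 189 to 228 in targeted ones, astrocyte markers to 517 to 642 and 656 to 736, and neuron markers to 52.4 to 57.5 and 32.01 to 43.1. Their part in these results was not tested.

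The response in OLs was then compared with that in OPCs as an interaction. Of 39 members tested, 8 responded more positively in OLs and 0 more negatively, against 1.69% of 14352 genes called and 0.920% called in the higher direction. They were Trib3 at 1.22, Eif4ebp1 at 1.05, Chac1 at 0.84, Slc7a5 and Sdf2l1 both at 0.81, Slc3a2 at 0.62, Aars at 0.43 and Shmt2 at 0.37, all differences of log2 changes. Trib3 lay lower in targeted than in control OPCs and higher in targeted than in control OLs, with no overlap between groups in either stage, although neither single-stage change passed the threshold. Slc7a5 had an SE of 0.09 and an adjusted p of 0.000306, and Eif4ebp1 an SE of 0.17 and an adjusted p of 0.00564, by edgeR.

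Atf4 at 0.51, Hspa5 at 0.61, Ddit3 at -0.14 and Asns at -0.56 had adjusted p-values of 0.232, 0.129, 0.936 and 0.946 by edgeR. Eif4ebp1 and Slc7a5 kept the call in all 22 alternatives, while the others lost it in 3 to 18. Without OL guide 1 library B, 13 members were called against 4.46% of all genes, with Atf4 at 0.37, Slc7a11 at 0.75 and Hspa5 at 0.48 among those added. Leaving out 1 other library left 2 to 5 calls for each OL control, OL guide 2 and OPC library, and 8 for guide 1 libraries A and C of OLs. Stage and deposited table cannot be told apart here, since each stage had its own table. Among other genes, Slc38a2 at -0.61, Calr at 0.46 and Pdia4 at 0.54 differed in response.

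Between control OLs and control OPCs, 36 members were tested, 9 rose and 9 fell. The background was 53.7% of 12868 genes called, 26.8% higher and 26.9% lower, so the members' share was near that of all genes. All 4 tested transporters rose, Slc7a11 at 1.63, Slc6a9 at 1.10, Slc3a2 at 0.51 and Slc7a5 at 0.30 on the log2 scale. Slc7a11 went from 22.1 to 23.7 CPM in control OPCs to 62.6 to 77.2 in control OLs, which did not overlap (adjusted p of 5.16e-06 by edgeR). Oligodendrocyte markers summed to 131 to 165 CPM in control OPCs and 2020 to 2221 in control OLs. Astrocyte markers summed to 517 to 642 and 4828 to 5072, and neuron markers to 52.4 to 57.5 and 104 to 109.5. The part of these marker differences in the changes between control stages was not tested.

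The enzymes Mthfd2 and Shmt2, both of mitochondrial one-carbon metabolism, fell by 1.31 and 0.74, and the tRNA genes Gars, Aars and Xpot fell by 0.69, 0.37 and 0.35. Mthfd2 read 92.6, 69.1 and 62.9 CPM in control OPCs and 28.1, 27.2 and 33.9 in control OLs. Among effectors, Ddit4 at 1.08, the lipoprotein receptor gene Vldlr at 0.97 and Chac1 at 0.96 rose, and Eif4ebp1 fell by 0.84. Cebpb and Cebpg fell by 1.17 and 0.46, while Atf4 read 258 to 299 and 271 to 285 CPM, a log2 difference of 0.03 ± 0.06 (SE). Ddit3 at 0.79 and Asns at 0.83 on the log2 scale had adjusted p-values of 0.0619 and 0.622 by edgeR. In the endoplasmic reticulum group Hspa5 fell by 0.50 while Dnajb9 and Sdf2l1 rose by 0.50 and 0.38. The call of Sdf2l1 (adjusted p of 0.0433 by edgeR) was lost in 8 of 12 alternatives, among them leaving out OL control A, B or C or OPC control B or C, and that of Slc6a9 in 1, with all groups in 1 fit.

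Of 15 other tRNA synthetase genes, 7 were lower and 1 higher, against 26.9% and 26.8% of all genes. Among 17 other ATF4 genes, 14 were tested, 4 rose and 6 fell. Among 20 other endoplasmic reticulum genes, 19 were tested, 5 rose and 5 fell, which is near the shares of all genes. The lists were not tested as sets.

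**Figure D3:**
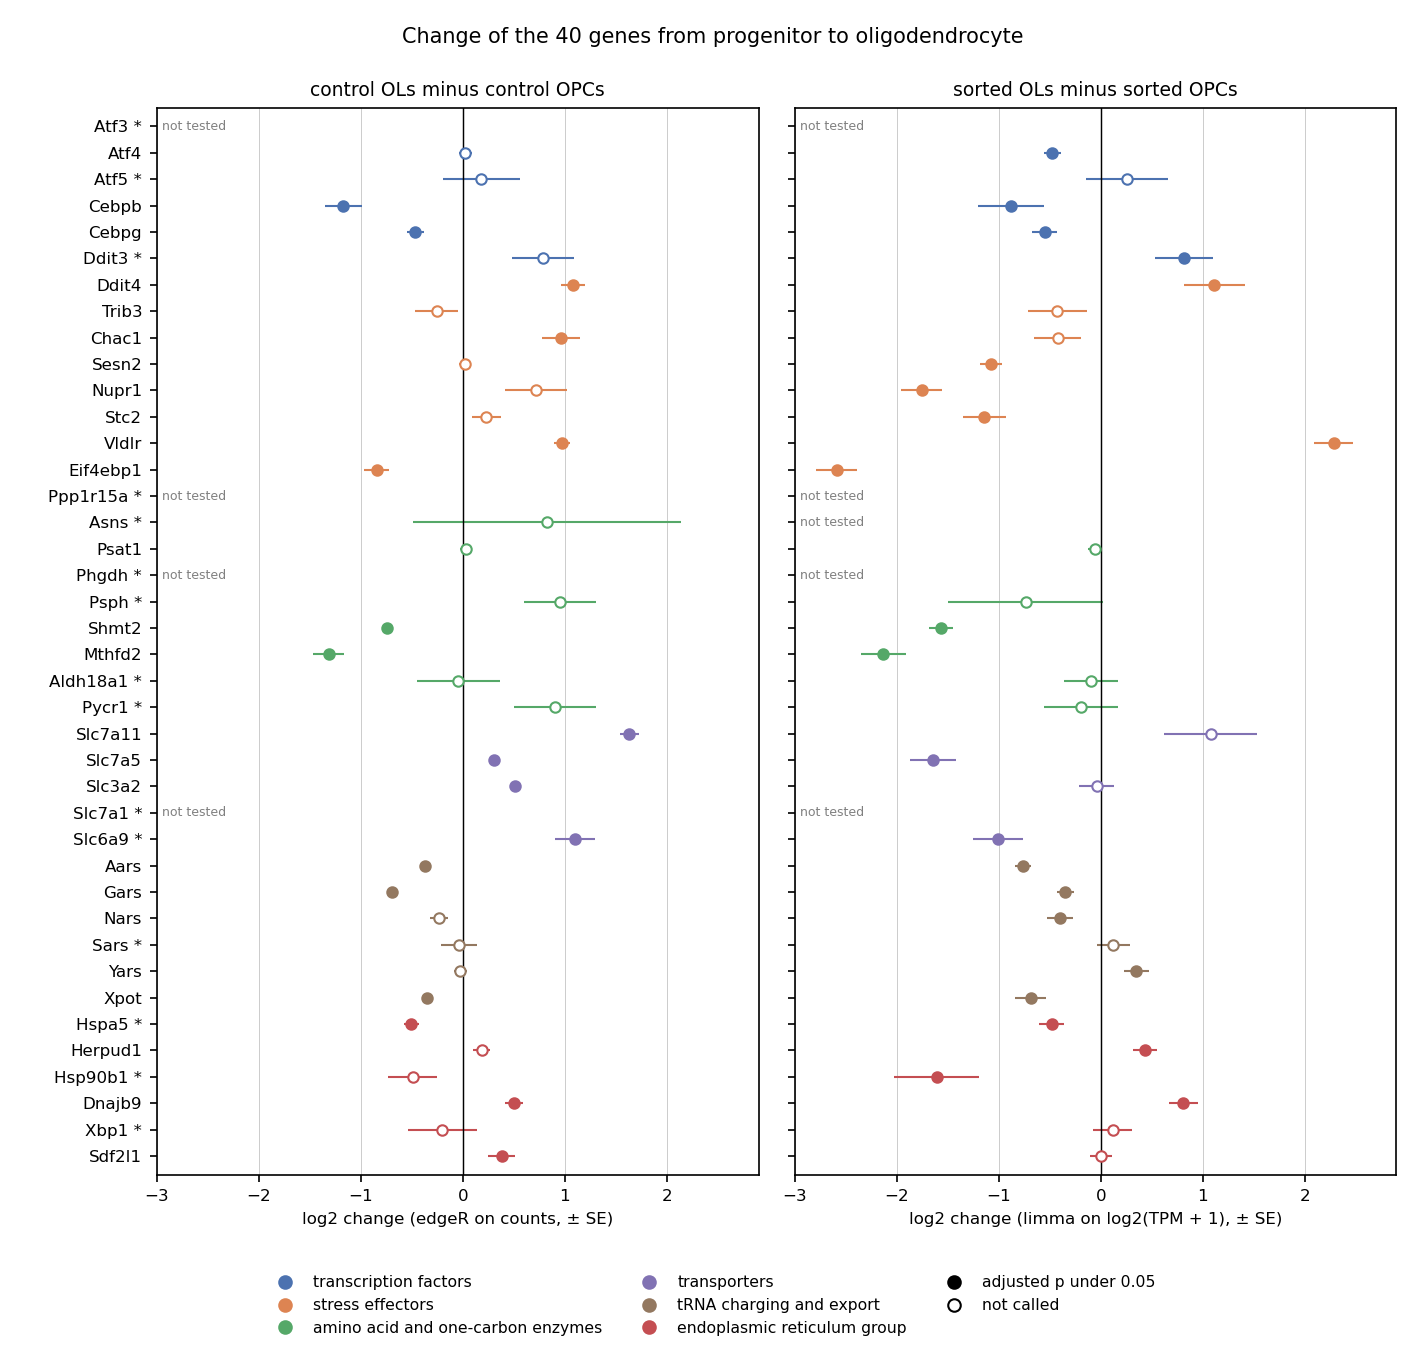
Log2 difference between OLs and OPCs (points with standard errors) for the members, in control cultures (from counts) and in sorted cells (log2 of TPM plus 1). Slc7a5 and Slc6a9 lie above 0 in control cultures and below 0 in sorted cells, and Mthfd2, Shmt2 and Eif4ebp1 lie below 0 in both.

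Sorted O1+ OLs differed from sorted OPCs in 23 of 35 members tested by limma on log2(TPM + 1), with 6 higher and 17 lower. The background was 61.0% of 11902 genes called, 26.6% higher and 34.4% lower, with a median of -0.14 over all genes. The median was -0.43 for the 29 ATF4 genes tested and 0.06 for the 6 endoplasmic reticulum genes. Oligodendrocyte markers summed to 25690 to 26090 TPM in sorted OLs and 45.7 to 74.8 in sorted OPCs. The summed progenitor list (Pdgfra, Cspg4, Olig1, Olig2 and Sox10) overlapped, at 1564 to 1587 and 1386 to 1743 TPM. That sum does not show how each of its genes changed. Astrocyte markers summed to 196 to 256 TPM in OPCs and 930.2 to 2804 in OLs, and their part in these results was not tested.

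The largest fall was that of Eif4ebp1, which read 45.3, 40.9 and 31.3 TPM in sorted OPCs and 5.34, 4.42 and 7.34 in sorted OLs, without overlap, a log2 difference of -2.59 ± 0.20 (SE, adjusted p of 3.85e-05 by limma). Mthfd2 fell by 2.13, from 61.7, 58.8 and 38.4 TPM to 14.4, 9.88 and 9.51, and Shmt2 fell by 1.56. Slc7a5 read 103, 92.03 and 66.3 TPM in OPCs and 21.3, 25 and 35.9 in OLs, a log2 difference of -1.64 ± 0.22 (SE, adjusted p of 0.000606 by limma).

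Slc7a5 and Slc6a9 were thus called lower in sorted OLs and higher in control OL cultures. The 2 experiments differ in sorting and unit, and the control cultures also carried a guide construct and had passed puromycin. Oligodendrocyte markers summed to 25690 to 26090 TPM in sorted OLs and 2020 to 2221 CPM in control OL cultures. Mog was not detected in any control OL library. The part of these differences in the opposite signs was not tested. The limits of transcript version and strand given above for Slc6a9 apply here too. Slc7a11 varied among sorted OLs, at 6.67, 12.6 and 29.0 TPM, and overlapped with the OPC values of 7.06, 6.04 and 4.85. Atf4 fell by 0.47, from 196, 213.5 and 174 to 133, 144 and 141 TPM, with no overlap (adjusted p of 0.0023 by limma). Nupr1 and Stc2, a stress-induced cofactor and a secreted glycoprotein, fell by 1.76 and 1.14, and Sesn2, a leucine-sensing regulator of mTORC1, fell by 1.08. Nupr1 averaged 4.72 TPM in sorted OPCs and 0.69 in sorted OLs, so it passed the filter only through the OPC libraries. Its fall is therefore a description, though it is counted among the lower calls.

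The risers were Vldlr, Ddit4, Ddit3, Yars and the endoplasmic reticulum members Dnajb9 and Herpud1, which acts in degradation of misfolded protein. Vldlr went from 8.55, 11.1 and 6.09 TPM to 41.6, 44.1 and 48.0, a log2 difference of 2.28 ± 0.19 (SE, adjusted p of 5.66e-05 by limma). Dnajb9 went from 12.7, 11.6 and 9.16 TPM to 18.9, 20.3 and 21.3, without overlap, at 0.81 ± 0.14 (SE). Ddit3 read 2.85, 7.15 and 3.40 TPM in sorted OPCs and 8.78, 8.11 and 7.49 in sorted OLs, at 0.82 ± 0.29 (SE), without overlap. Asns, untested, read 0.20 to 4.34 and 0.30 to 0.70 TPM. Hspa5 fell by 0.48 and Hsp90b1, the chaperone GRP94, fell by 1.61, so the endoplasmic reticulum group held 2 higher, 2 lower and 2 not called. Hsp90b1 is among the members whose principal transcripts are all of version 10 or higher. Among the 23 calls, that of Cebpb was lost in 8 of 10 alternatives, those of Ddit3 and Yars in 6 each, that of Nars in 5, and those of Gars and Herpud1 in 1 each. Leaving out sorted OL library A, B or C each ended the calls of Ddit3 and Yars, as did OPC library A or C for Ddit3 and B or C for Yars.

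Of 17 other ATF4 genes, 15 were tested in sorted cells, 1 rose and 10 fell, Pck2 at -2.95 and Slc43a1 at -2.09 among them. Slc38a2 was the riser, at 0.67. Over all genes tested, 26.6% were called higher and 34.4% lower. Of 20 other endoplasmic reticulum genes, all were tested, 7 rose and 5 fell, with Selenos at 1.22 and Edem1, of misfolded protein disposal, at 1.00 among the risers and Pdia6 at -1.06 among the fallers.

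Set side by side, the 2 groups had medians on the log2 scale of -0.04 (ATF4) and -0.01 (endoplasmic reticulum) in targeted OPCs, with -0.0049 over all genes. They had 0.26 and 0.48 in targeted OLs, with -0.0008 over all genes, and 0.20 and 0.36 without library B. The interaction gave 0.28 and 0.54, with 0.02 over all genes, and control OLs against control OPCs gave 0.03 and -0.01, with 0.02 over all genes. These comparisons share control libraries, and the groups were not tested against each other.

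**Figure D4:**
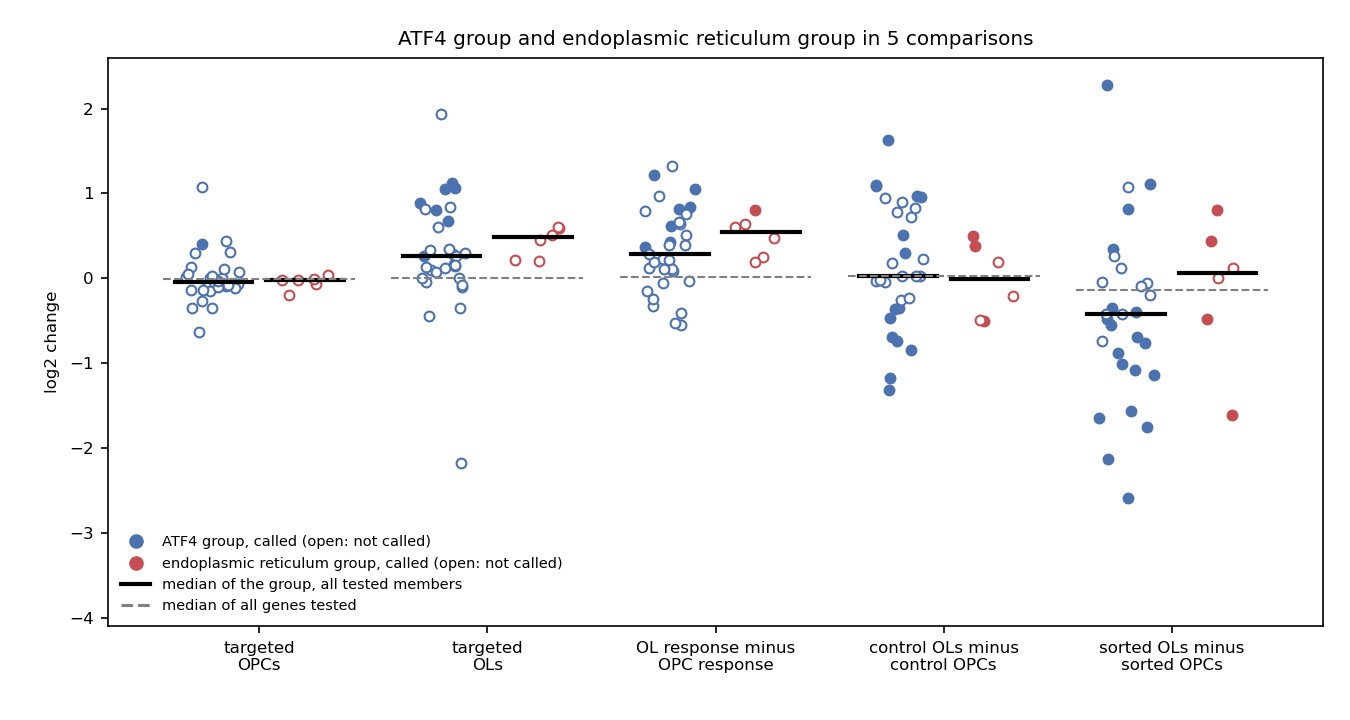
Log2 differences of the tested ATF4 members and endoplasmic reticulum members (points) with the group medians (bars) in 5 comparisons; 181 points are drawn and 1 lies beyond the axis limit. In targeted OLs the 6 endoplasmic reticulum genes lie above 0 in these counts (Hsp90b1 falls below 0 with a length offset) and ATF4 members lie on both sides.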

How the data were processed

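Poly(A) RNA was sequenced from 23 libraries in 8 groups, with a kit that does not mark strand, per the labels' protocols. Reads were quantified with Salmon 0.14.1 on mm10, and DESeq2 was used, per the submitters' processing notes. For the Sox6 experiment the authors deposited estimated counts and TPM by gene, and for the sorted cells TPM; how transcripts were summed is not given in the sources used. The authors also deposited adjusted p-values with a log2 fold change, stated as control over targeted and turned in sign here. Estimated counts were rounded and tested with edgeR 4.0.16 (quasi-likelihood, TMM, filterByExpr with a minimum count of 10 and total of 15). CPM values use TMM-scaled library totals. For TPM, limma 3.58.1 was run with log2(TPM + 1) on the genes that reached 1 TPM in 3 libraries. A gene was called at a Benjamini-Hochberg adjusted p under 0.05 over all genes tested. The tests were tried on simulated data. The simulated counts had less spread than the OL libraries and no library that stood apart, so the trial does not show performance on these OL data. Alternatives were DESeq2 1.42.0, other scalings, filters and pseudocounts, each guide alone, and each library left out. Named genes were those called, plus Atf4, Ddit3, Asns and Hspa5. Others, such as Psat1, Xbp1, Trib3, Ddit4, Phgdh and Hsp90b1, were named for their level, annotation, separation or sign after values were seen. The members and lists were chosen with earlier results of these data known.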

Additional observations from a re-analysis of the deposited data

Results flagged for a closer look

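For 8 members the response to Sox6 targeting differed between OLs and OPCs in edgeR's test of that difference. Expressed as the OL response minus the OPC response on the log2 scale, it was 1.22 for Trib3, 1.05 for Eif4ebp1, 0.84 for Chac1, 0.81 for Slc7a5, 0.81 for Sdf2l1, 0.62 for Slc3a2, 0.43 for Aars and 0.37 for Shmt2. Each stage had its own controls and its own deposited table, so stage and table cannot be told apart.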

How the results depend on the processing

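The count of members called moved most with which libraries were used. In targeted OPCs (1 call) it was 2 with DESeq2 (Slc7a11 and Slc6a9), which called 787 of 12939 genes against 479 of 13358 by edgeR. The count was 2 with no filter, 0 with both stages fitted together, and 0 with guide 1 or guide 2 alone. With 1 library left out it was 0 to 1. In targeted OLs (9) the count was 13 with DESeq2 (12 higher, and Ddit4 lower), which called 1358 of 14910 genes against 874 of 13447 by edgeR. It was 5 with guide 2 alone and 4 to 17 with 1 library left out. The interaction (8) gave 3 with a length offset, 4 with no filter and 2 to 13 with 1 library left out. Control OLs against control OPCs gave 17 to 20 and sorted cells 18 to 21 with 1 library left out, and guide 2 minus guide 1 gave 0 throughout. The cause of these moves was not tested.

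The ATF4 median in targeted OPCs was -0.11 with guide 1 alone. In targeted OLs (0.26) it was 0.17 with DESeq2, 0.17 with both stages fitted together, 0.20 with library totals, 0.22 with no filter, 0.17 with guide 2 alone and 0.17 to 0.27 with 1 library left out. For the interaction (0.28) it was 0.36 with DESeq2, 0.44 with a length offset, 0.18 with library totals, 0.26 to 0.38 with 1 library left out and 0.41 over the 22 members with no principal transcript of version 10 or higher, an alternative chosen after seeing the data. The endoplasmic reticulum median of the interaction was 0.35 with a length offset. Between control stages that median was 0.13 with a length offset, 0.38 over its 3 such members and -0.12 to 0.15 with 1 library left out; in sorted cells it was 0.44 over these 3, and the ATF4 median there was -0.56 to -0.31 with 1 library left out.

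Signs changed for genes that were not called. With a length offset Ddit3 was -0.0098 in OPCs, 0.019 in OLs and 0.041 in the interaction, and with guide 2 alone it was -0.21 in OPCs and 0.12 in OLs. With 1 library left out Ddit3 spanned -0.0077 to 0.39, -0.19 to 0.11 and -0.41 to 0.0061, Hspa5 in OPCs -0.13 to 0.016 and Asns in the interaction -4.35 to 0.54. Between control stages Atf4 spanned -0.042 to 0.071 and Asns -0.28 (without OL control C) to 4.59. No paired analysis was possible because the columns carry letters that the labels do not tie to replicate numbers. Members under 1 CPM, such as Phgdh, rest on few reads.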
